A study of Homo sapiens with 6 samples.

Results

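In HCT116/Scrsh cells, which carry a scramble shRNA, ChIP-seq placed the histone demethylase KDM3B in 17638 regions of the genome and its substrate H3K9me2, dimethylated lysine 9 of histone H3, in 11645 regions. Every region of both deposited lists was used, so the lists described here hold 29283 of the 126184 regions in the 4 lists of the series. HCT116 is an established human colorectal cancer cell line, and in ChIP-seq the DNA that is pulled down with an antibody's target is read. The study compared HCT116/Scrsh with HCT116/ABsh-1, in which an shRNA depletes KDM3A and KDM3B, and also sequenced input DNA of both populations. The question taken up is where KDM3B and H3K9me2 lie relative to each other when KDM3A and KDM3B are not depleted. The labels of the samples give the treatment as siRNA and the study's text as stably expressed shRNA, and the scramble-treated cells stand for a single line. There was 1 library per antibody, so no test between the libraries was made and every difference is a description of 2 lists. The authors counted reads in 100-bp windows, compared ChIP with input in each window and deposited the called windows joined into regions on hg19. The lists hold no read numbers, so depth is unknown, and in the number of regions the target, the antibody and the depth cannot be told apart. Each region has a whole-number score whose meaning was not stated, and here it serves only to order the regions of 1 list among themselves. Shares are given with Wilson 95% confidence intervals in brackets, which cover counting error only, because neighbouring regions are not independent.

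Methylation of H3K9 is a mark of silent chromatin, laid down as H3K9me2 mainly by the methyltransferases EHMT1 and EHMT2 over gene-poor and silent parts of the genome. KDM3B and its relatives KDM3A and JMJD1C are Jumonji enzymes that strip methyl groups from this lysine, and DNA-binding factors and their partners bring them to genes. An enzyme that erases a mark and the mark itself can therefore be mapped at different places, and maps of called regions show only where each signal stood above the input.

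The sequences that follow are a few high-scoring calls of each list and need not resemble the rest of it. They are regions of at most 300 bp that overlap no UTR and stand among the highest scores of their list, 2 for KDM3B and 3 for H3K9me2, all from the plus strand of hg19, with every CpG dinucleotide in capitals. The first KDM3B region is chr1:91852801-91853100 in an intron of HFM1 (score 699, 17 CpG). The next is chr7:61969301-61969600, distal intergenic DNA beside the centromere (score 403, 5 CpG). Whether the letters of either region recur elsewhere in the genome was not tested, so their reads may not belong to these places.
KDM3B region 1: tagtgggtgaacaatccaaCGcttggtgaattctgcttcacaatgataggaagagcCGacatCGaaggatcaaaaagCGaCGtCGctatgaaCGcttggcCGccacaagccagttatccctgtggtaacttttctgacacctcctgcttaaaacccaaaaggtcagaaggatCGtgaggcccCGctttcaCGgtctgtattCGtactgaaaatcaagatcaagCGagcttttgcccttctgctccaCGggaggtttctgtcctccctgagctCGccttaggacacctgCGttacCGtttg
KDM3B region 2: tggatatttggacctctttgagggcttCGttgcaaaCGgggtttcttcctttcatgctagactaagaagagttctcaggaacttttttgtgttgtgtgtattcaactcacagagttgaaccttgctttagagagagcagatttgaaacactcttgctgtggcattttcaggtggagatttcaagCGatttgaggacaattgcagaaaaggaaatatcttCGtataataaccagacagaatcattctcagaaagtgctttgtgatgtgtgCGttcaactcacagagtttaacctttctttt
The H3K9me2 regions are chr2:133023101-133023300 downstream of the pseudogene CDC27P1 (score 159, 5 CpG), chr1:17051501-17051800 near the pseudogene ESPNP (score 141, 27 CpG) and chr5:178012501-178012800 in an intron of the collagen gene COL23A1 (score 137, 7 CpG). In the last of them the same unit of letters returns several times in a row.
H3K9me2 region 1: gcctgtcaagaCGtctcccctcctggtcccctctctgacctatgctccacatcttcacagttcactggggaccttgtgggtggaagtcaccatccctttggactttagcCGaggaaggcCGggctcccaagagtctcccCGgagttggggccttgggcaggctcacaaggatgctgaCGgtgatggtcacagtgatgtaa
H3K9me2 region 2: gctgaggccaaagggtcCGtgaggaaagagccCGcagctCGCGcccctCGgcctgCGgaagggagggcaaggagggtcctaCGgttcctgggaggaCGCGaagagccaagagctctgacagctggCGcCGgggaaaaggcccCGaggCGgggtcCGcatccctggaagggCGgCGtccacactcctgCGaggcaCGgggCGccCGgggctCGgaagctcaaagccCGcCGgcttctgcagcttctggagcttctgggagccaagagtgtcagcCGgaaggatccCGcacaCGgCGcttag
H3K9me2 region 3: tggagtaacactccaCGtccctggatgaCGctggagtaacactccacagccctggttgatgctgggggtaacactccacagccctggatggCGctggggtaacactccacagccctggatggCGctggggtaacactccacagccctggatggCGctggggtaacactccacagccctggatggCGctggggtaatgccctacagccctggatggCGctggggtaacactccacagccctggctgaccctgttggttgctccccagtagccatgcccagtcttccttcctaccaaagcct

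Bases called in both lists were rare. Those of 2 pairs of regions, again from the plus strand of hg19 with CpG in capitals, lie at chr6:58776401-58776700 and chrY:13477101-13477300 beside the pseudogene DUX4L18. They differ in composition, with 40.3% GC at the first and 70% at the second.
Shared bases 1, chromosome 6: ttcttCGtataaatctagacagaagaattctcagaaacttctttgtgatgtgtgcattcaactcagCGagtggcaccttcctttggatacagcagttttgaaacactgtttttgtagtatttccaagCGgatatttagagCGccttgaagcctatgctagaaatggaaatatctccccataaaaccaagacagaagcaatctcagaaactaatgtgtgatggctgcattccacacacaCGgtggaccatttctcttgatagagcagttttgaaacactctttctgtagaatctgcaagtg
Shared bases 2, chromosome Y: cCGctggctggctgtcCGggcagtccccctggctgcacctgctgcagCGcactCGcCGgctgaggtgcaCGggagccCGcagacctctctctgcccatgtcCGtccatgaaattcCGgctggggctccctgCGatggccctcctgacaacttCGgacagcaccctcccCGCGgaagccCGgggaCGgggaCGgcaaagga

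KDM3B regions were wider than H3K9me2 regions. Their mean width was 182 bp against 145 bp, and together they covered 3.21 Mb against 1.69 Mb. A single 100-bp window made up 53.8% of the KDM3B regions (53.0 to 54.5%) and 72.9% of the H3K9me2 regions (72.1 to 73.7%). The study's text asks that neighbouring windows pass its cutoff together, and how regions of a single window came to be called is not given in the sources used here. At 500 bp or wider were 3.75% of the KDM3B regions (3.48 to 4.04%) and 1.87% of the H3K9me2 regions (1.64 to 2.13%). The widest KDM3B region spanned 2900 bp and the widest H3K9me2 regions 1000 bp. No long continuous block of H3K9me2 was listed, and neighbouring H3K9me2 regions were a median of 67800 bp apart, against 56450 bp for KDM3B.

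Relative to the genome, KDM3B regions were enriched at promoters and H3K9me2 regions most of all in coding exons, although coding exons held few of the centres. The promoter was defined as the 3 kb before an annotated transcription start site (TSS). Promoters held 36.0% of the KDM3B centres (35.3 to 36.8%) and 15.5% of the H3K9me2 centres (14.8 to 16.1%), while they make up 10.8% of the assembled genome. Coding exons outside promoters and other classes of higher priority held 0.510% of the KDM3B centres (0.415 to 0.627%), which was 1.07 times their share of the genome. Of the H3K9me2 centres they held 3.80% (3.47 to 4.17%), which was 7.98 times that share. The 3′ UTR and exons of non-coding transcripts also held larger shares of H3K9me2, 1.13% (0.957 to 1.34%) against 0.629% (0.523 to 0.757%) and 2.71% (2.43 to 3.02%) against 1.73% (1.55 to 1.93%). The 5′ UTR was alike in both lists, with 0.646% (0.538 to 0.776%) and 0.567% (0.446 to 0.720%) of centres. Introns held 28.1% of the KDM3B centres and 38.4% of the H3K9me2 centres, both below the 44.9% of the genome that is intronic. Distal intergenic DNA, at 32.7% of the genome, held 21.4% and 27.4%. The 3 kb downstream of transcript ends held 10.9% and 10.5%, close to their 9.23% of the genome.

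**Figure D1:**
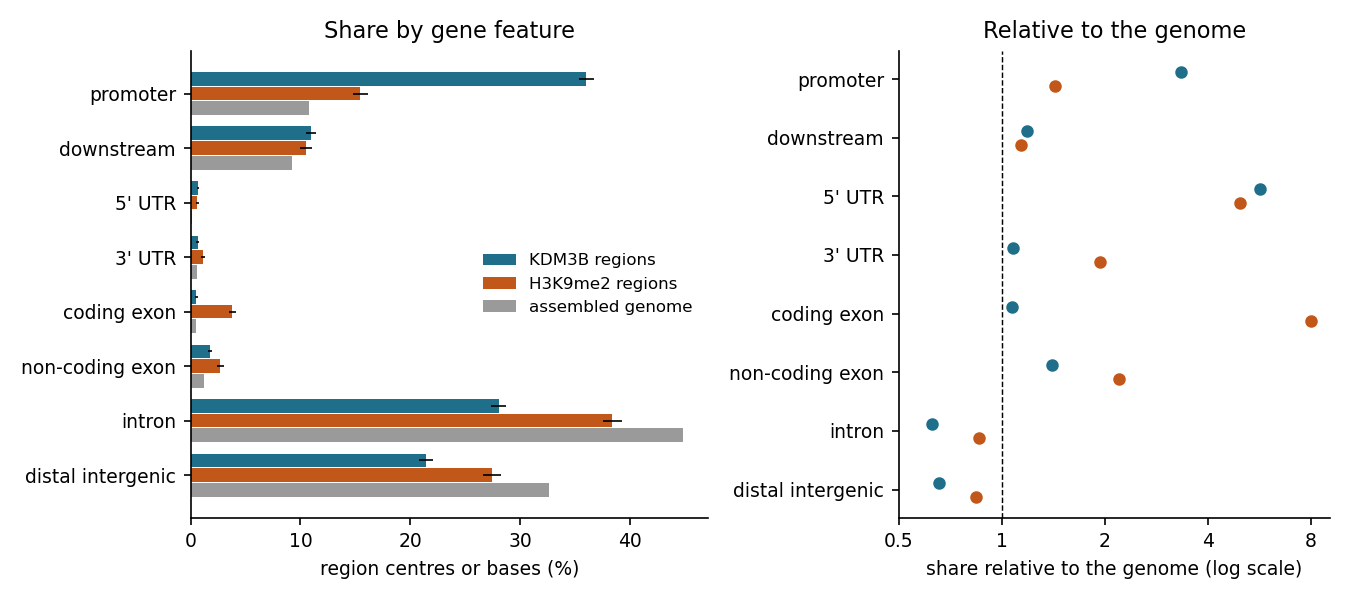
Share of region centres in each gene feature for KDM3B, H3K9me2 and the assembled genome (left, in percent, with Wilson 95% intervals) and the same shares divided by that of the genome (right, log scale). KDM3B stood furthest above the genome in the 5′ UTR and promoter, and H3K9me2 in the coding exon, at 7.98 times the genome.

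The lists also differed on either side of the TSS. To compare them per base, every fully assembled 100-bp window of the genome (28586281 windows) was placed by its distance to the nearest TSS, and windows within a called region were counted. Over all windows, 11.2 of every 10000 were in a KDM3B region and 5.90 in an H3K9me2 region, a ratio of 1.90. In the 500 bases upstream of a TSS the rates were 106 and 15.5, a ratio of 6.82. In the 500 bases downstream the rates were 75.2 and 21.3, so KDM3B was densest before the TSS and H3K9me2 after it. From 500 to 1000 bases downstream KDM3B had already dropped to 18.1 and H3K9me2 was still at 13.2. Between 10000 and 50000 bases downstream the rates were 6.76 and 5.61, and beyond 100000 bases 1.55 and 1.73. The excess of KDM3B over H3K9me2 thus lay close to start sites, and far from them both lists were sparse.

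**Figure D2:**
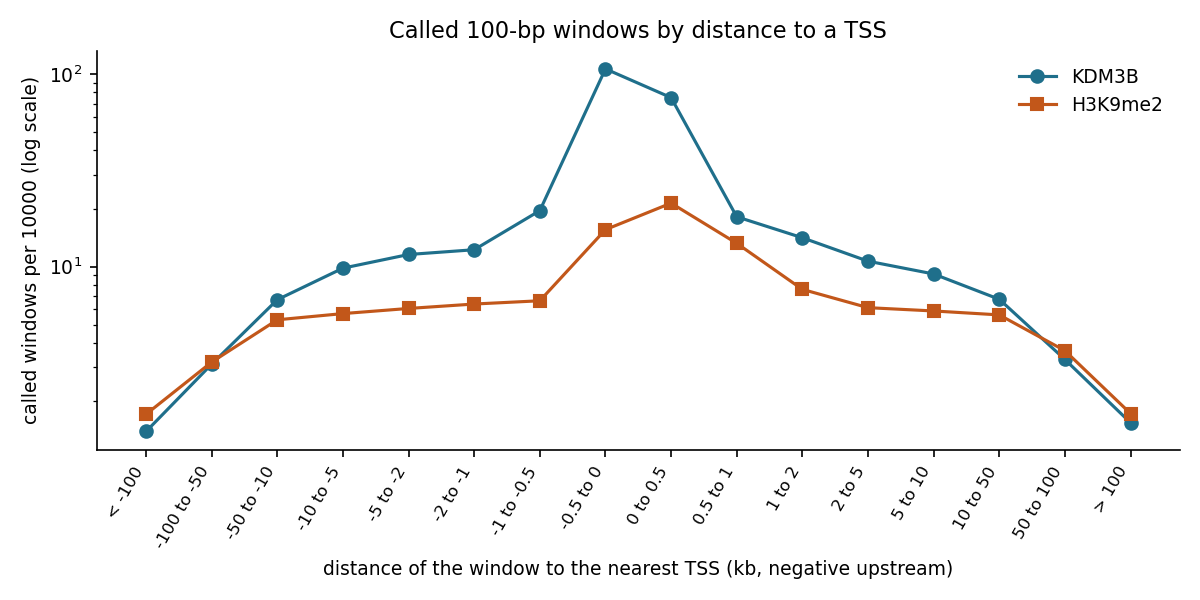
Windows in a called region per 10000 windows of the genome (log scale) by distance to the nearest TSS (kb, negative upstream) for KDM3B and H3K9me2. KDM3B peaks at 106 in the 500 bases before the TSS and H3K9me2 at 21.3 in the 500 bases after it.

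Both lists were rich in GC, to a mean of 53.6% for KDM3B regions and 52.8% for H3K9me2 regions against 40.9% over all windows. The spread was wider for H3K9me2, with an SD of 11.9 percentage points over regions against 9.60. GC depended on where a region lay. H3K9me2 regions in coding exons averaged 63.7% GC and those in introns 49.7%, whereas KDM3B regions averaged 58.2% in promoters and 49.8% in introns. CpG was denser in KDM3B promoter regions, where the median ratio of observed to expected CpG was 0.627, than in H3K9me2 promoter regions, where it was 0.433. With only the 50% of each list that scored highest, the order of the mean GC turned over, at 53.9% for KDM3B and 55.5% for H3K9me2.

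Since exons and promoters are GC-rich, windows of like GC content were compared, and the contrast between promoters and coding exons was still there. Among windows of 65 to 69% GC, KDM3B regions took up 228 of 10000 windows in promoters, 23.2 in coding exons, 39.3 in introns and 64.0 in distal intergenic DNA. H3K9me2 regions took up 73.4 in promoters, 297 in coding exons, 65.4 in introns and 105 in distal intergenic DNA. At 55 to 59% GC the rates of H3K9me2 were 62.2 in coding exons and 10.9 in promoters, and those of KDM3B 27.7 and 77.7. The numbers behind the coding-exon rates are small, with 281 H3K9me2 and 22 KDM3B windows among the 9474 coding-exon windows of 65 to 69% GC. At 35 to 44% GC the coding-exon rate of H3K9me2 was 2.96, no higher than the 3.53 of introns. Away from TSSs, the order of the lists varied with GC. With no TSS within 5 kb, windows of 65 to 69% GC were in an H3K9me2 region in 88.5 of 10000 cases and in a KDM3B region in 45.5, and windows of 70 to 74% GC in 167 and 68.6. The order was the other way at 60 to 64% GC, with 25.8 for H3K9me2 and 26.9 for KDM3B, and at 55 to 59% GC, with 9.65 and 16.9. Over all windows the rates were 5.90 for H3K9me2 and 11.2 for KDM3B, so which list is higher also depends on how much each list covers.

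**Figure D3:**
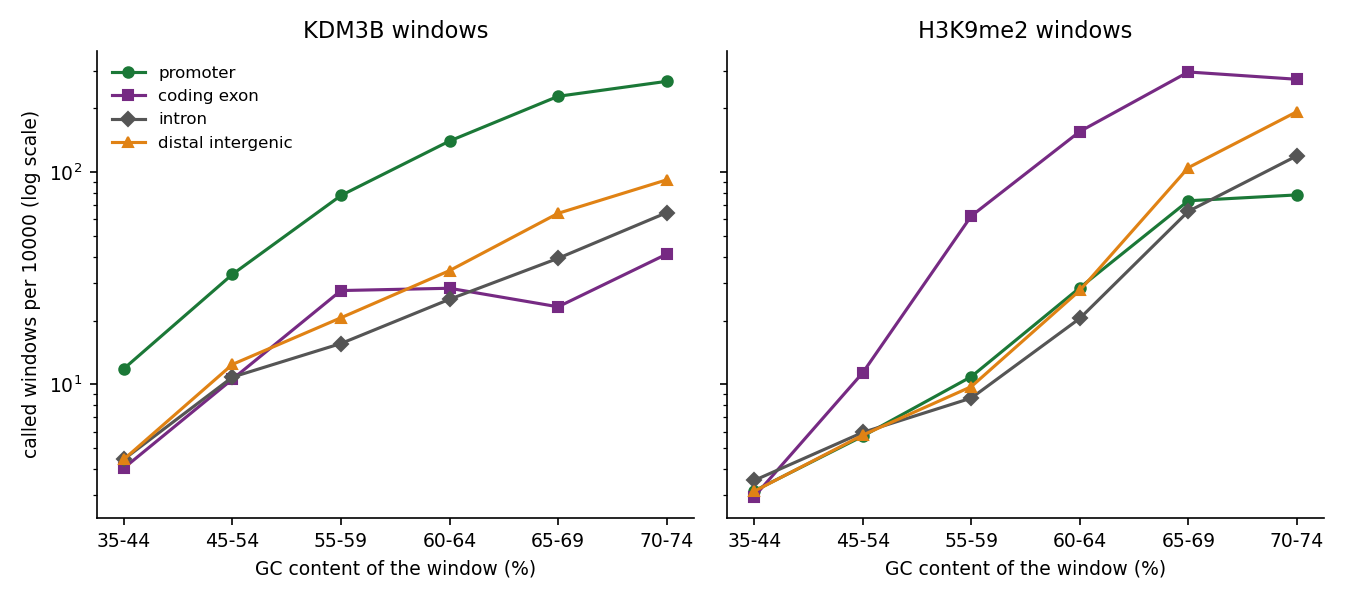
Windows in a KDM3B region (left) or an H3K9me2 region (right) per 10000 windows (log scale) in bins of GC content (percent), for promoters, coding exons, introns and distal intergenic DNA. Promoters are the highest line for KDM3B in every bin, and coding exons the highest for H3K9me2 from 45% GC upwards, reaching 297 at 65 to 69% GC.

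The coding-exon regions of H3K9me2 lay in large exons of many genes. Of 443 such centres, 430 fell in a coding exon of a canonical transcript, and they belonged to 391 genes. The median length of the coding part of these exons was 413 bases (quartiles 204 and 933), against 161 (112 and 236) for the 79 KDM3B centres that could be placed in the same way. Coding sequence made of 1 exon held 14.0% of the H3K9me2 centres (11.0 to 17.5%), and it makes up 6.51% of all canonical coding bases. A first coding exon held 18.8% (15.4 to 22.8%) and a last one 16.3% (13.1 to 20.1%), beside 10.3% and 14.7% of coding bases. The centres leave out coding sequence that fell in promoters or other classes of higher priority, and the coding bases do not. The shares of centres and of bases are therefore of unlike sets, and their difference cannot be read as enrichment.

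Some of the widest of these regions, picked here as examples, lay in genes best known from other tissues. PTGDR, the receptor of prostaglandin D2, had the widest, 1000 bp at chr14:52734401-52735400 with 66.6% GC, in coding exon 1 of 2. The testis actin-like gene ACTL7B, whose coding sequence is 1 exon, held a region of 900 bp at chr9:111617201-111618100. DLGAP1, a scaffold protein of synapses, had 800 bp in its first coding exon at chr18:3879201-3880000. In KCNJ12, an inward rectifier potassium channel of muscle, 700 bp were called at chr17:21318601-21319300, and KCNJ12 has near-identical copies, so its reads are uncertain. HOXB1 and PAX3, transcription factors of the embryo, had regions of 600 bp centred in their first coding exon. Regions of like width lay at ANKFN1 and FAM50B (900 bp each), ADAMTSL1 (800 bp), CNGA4 (700 bp) and PIK3CG, STX11, RTN1, CELSR2 and SH2D7 (600 bp each). No expression data enter these lists, and the examples were chosen after their widths and identities were seen. They therefore show no tendency of the coding-exon regions towards genes of other tissues. As an example of sequence, a high-scoring coding-exon region of at most 300 bp lay at chr16:84256101-84256400 in KCNG4, a modifier subunit of potassium channels, and its 23 CpG are in capitals.
H3K9me2 coding-exon region: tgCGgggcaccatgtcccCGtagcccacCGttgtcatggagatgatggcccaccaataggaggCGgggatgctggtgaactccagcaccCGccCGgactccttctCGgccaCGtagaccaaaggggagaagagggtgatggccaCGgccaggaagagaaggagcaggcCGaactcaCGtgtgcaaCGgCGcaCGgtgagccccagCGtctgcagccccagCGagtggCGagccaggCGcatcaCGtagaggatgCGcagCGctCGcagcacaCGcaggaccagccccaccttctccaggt

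The letters of some transcription factor motifs were more frequent in KDM3B regions than in the genome, while in H3K9me2 regions the AP-1 letters stood near the genome share. The count used regions of a single window, read on both strands, and set them beside all 100-bp windows. TGAGTCA, the AP-1 motif bound by FOS and JUN proteins, stood in 5.47% of the KDM3B windows (5.03 to 5.95%), in 1.52% of the H3K9me2 windows (1.28 to 1.80%) and in 1.49% of all windows. In distal intergenic DNA the shares were 7.34% for KDM3B (6.31 to 8.53%), 1.63% for H3K9me2 (1.19 to 2.21%) and 1.51% for all windows. Within windows of 45 to 54% GC, they were 7.0% (6.18 to 7.93%), 2.10% (1.58 to 2.79%) and 1.86%.

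CCGGAAG, the core motif of ETS factors, marked KDM3B windows in promoters, with 4.44% (3.76 to 5.23%) against 1.38% (0.863 to 2.20%) of the H3K9me2 promoter windows and 0.472% of all promoter windows. Within 65 to 74% GC it stood in 5.18% of KDM3B windows (4.08 to 6.56%), 1.72% of H3K9me2 windows (1.19 to 2.48%) and 1.63% of all windows. The GC box GGGCGG, bound by SP factors, was found in 9.00% of KDM3B windows (8.44 to 9.59%) and 6.46% of H3K9me2 windows (5.95 to 7.0%), against 1.51% of all. At 65 to 74% GC the shares were 31.2% (28.7 to 33.8%), 19.7% (17.8 to 21.7%) and 19.8%. At 55 to 64% GC both lists were above all windows, with 11.2% (10.0 to 12.4%), 9.41% (8.16 to 10.8%) and 5.52%. At 45 to 54% GC the shares were 2.63% (2.13 to 3.24%), 1.46% (1.04 to 2.05%) and 1.79%. At 35 to 44% GC they were 0.559% (0.312 to 0.998%), 0.233% (0.0994 to 0.544%) and 0.267%. CTTTGA, the core of the TCF/LEF motif through which β-catenin is brought to Wnt target genes, stood in 6.32% of KDM3B windows (5.84 to 6.82%), 5.72% of H3K9me2 windows (5.24 to 6.23%) and 7.15% of all windows. At 45 to 54% GC these were 7.89% (7.01 to 8.86%), 6.93% (5.94 to 8.07%) and 5.77%. The other GC bins lay closer to all windows. At 35 to 44% GC the shares were 9.90% (8.66 to 11.3%), 9.07% (7.93 to 10.4%) and 8.57%. At 55 to 64% GC they were 3.85% (3.19 to 4.64%), 3.37% (2.64 to 4.30%) and 3.18%. At 65 to 74% GC they were 1.46% (0.924 to 2.29%), 1.17% (0.750 to 1.82%) and 1.35%. TATAAA was rarer than in the genome in both lists, at 3.37% (3.03 to 3.76%) and 4.40% (3.98 to 4.85%) against 11.3%. The core of the Alu repeat stood in 0.158% and 0.212% of windows against 1.34%, and the study kept only reads with a unique position. A motif match is a run of letters and not a measured binding site.

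High-scoring single windows that hold these letters show what was counted, with the motif in capitals. The first lies in distal intergenic DNA at chr7:74024801-74024900 (score 34), where the AP-1 letters are on the minus strand, and the second at chr18:21033101-21033200 in the promoter of the kinase gene RIOK3 (score 31), centred at -101 relative to its TSS. Both were chosen by score after the motif shares were known.
KDM3B intergenic window with AP-1 letters: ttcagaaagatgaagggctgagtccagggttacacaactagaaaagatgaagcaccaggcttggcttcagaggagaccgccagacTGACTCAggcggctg
KDM3B promoter window with ETS letters: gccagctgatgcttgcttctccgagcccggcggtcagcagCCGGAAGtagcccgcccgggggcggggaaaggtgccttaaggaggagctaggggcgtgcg

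The lists were distributed over the chromosomes in different orders. Relative to assembled length, KDM3B regions were most frequent on chromosomes 19, 17 and 22, at 2.87, 2.29 and 2.16 times the genome rate. H3K9me2 regions were most frequent on chromosomes 22, 15 and 17, at 2.67, 2.09 and 2.01 times, and chromosome 19 stood at 1.04. Chromosome 19, the chromosome densest in genes, thus held 987 KDM3B and 236 H3K9me2 regions, and its share of the H3K9me2 list was 0.362 of its share of the KDM3B list. On chromosome 12, with 928 and 295 regions, this quotient was 0.481. It was highest on chromosome Y (46 and 112 regions, 3.69), chromosome 21 (196 and 279, 2.16), chromosome 13 (324 and 434, 2.03) and chromosome 9 (726 and 894, 1.87). Chromosomes 8, 10, 14, 15, 16, 18 and 22 were also above 1, between 1.17 and 1.78. Relative to the number of annotated TSSs, chromosome 19 fell to 0.980 for KDM3B and 0.355 for H3K9me2. Copy number was not measured in these lists, so its part in the chromosome rates was not tested.

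At the scale of 1 Mb, 490 of 2869 bins held no KDM3B region and 724 no H3K9me2 region. The bin with most KDM3B regions was chr11:65000001-66000000, with 48 KDM3B and 4 H3K9me2 regions, and the bin chr6:26000001-27000000 around the histone gene cluster had 44 and 1. H3K9me2 peaked at chr16:87000001-88000000, with 51 H3K9me2 and 23 KDM3B regions, and next to it at chr16:86000001-87000000, which holds the forkhead genes FOXF1, FOXC2 and FOXL1, with 48 and 12. The bin chr22:47000001-48000000 held 35 H3K9me2 and 11 KDM3B regions. Within 5 Mb of a chromosome end lay 13.2% of the H3K9me2 regions (12.6 to 13.8%) and 10.0% of the KDM3B regions (9.57 to 10.5%), against 7.11% of all windows.

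KDM3B and H3K9me2 regions lay in the same broad neighbourhoods but seldom side by side. The nearest H3K9me2 region was a median of 88700 bp from a KDM3B region, against 166800 bp from an average window of the genome. Within 50000 bp of an H3K9me2 region lay 34.8% of the KDM3B regions (34.1 to 35.5%), 1.43 times the 24.3% of all windows. Within 5000 bp the share was 3.85% (3.58 to 4.14%), close to the 3.72% of all windows. Within 1000 bp it was 0.533% (0.436 to 0.652%), only 0.582 times the 0.916% of all windows. From the other side, 50.7% of the H3K9me2 regions (49.8 to 51.6%) had a KDM3B region within 50000 bp, 1.44 times all windows, and 0.833% (0.683 to 1.02%) had one within 1000 bp, 0.589 times. The excess at 50000 bp was smaller when regions and windows with a TSS within 5 kb were compared. There the ratios were 1.17 for KDM3B and 1.18 for H3K9me2 regions, and with no TSS within 5 kb they were 1.605 and 1.55. The short-range deficit was larger around start sites. For KDM3B regions with a TSS within 5 kb, 0.557% (0.427 to 0.726%) had an H3K9me2 region within 1000 bp, 0.446 times the share of windows near a TSS, and without a TSS it was 0.504% (0.370 to 0.685%), 0.635 times. No test of this difference was made.

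**Figure D4:**
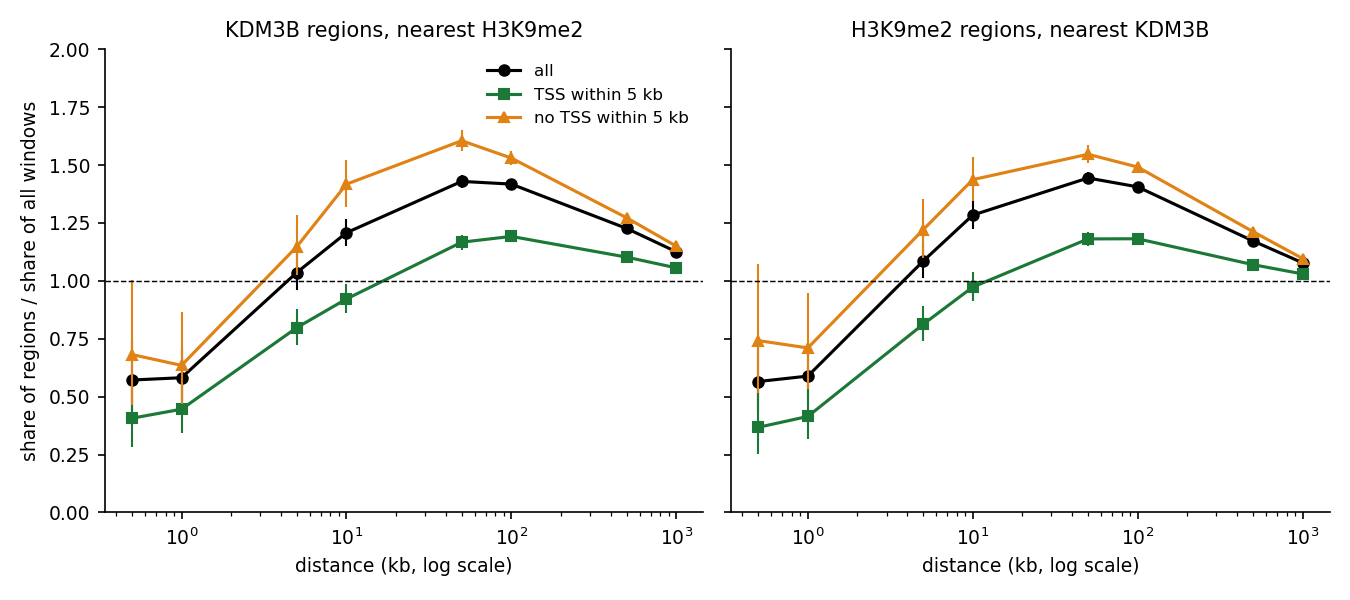
Share of KDM3B regions near an H3K9me2 region (left) and of H3K9me2 regions near a KDM3B region (right), divided by the share of all genome windows as near, by distance (kb, log scale), for all regions and for those with and without a TSS within 5 kb. Bars are Wilson 95% intervals, the dashed line is the genome, and the lines lie below 1 at 1 kb and above it from 50 kb.

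The rate of H3K9me2 near KDM3B was also compared at like GC content, since both lists are GC-rich. Among windows of 65 to 69% GC with a TSS within 5 kb, 44.8 of 10000 were in an H3K9me2 region where a KDM3B region lay within 5 kb (157 of 35026 windows) and 95.1 where it did not (1427 of 150032). For 60 to 64% GC these rates were 18.2 and 34.4, and for 70 to 74% GC 46.2 and 113. With no TSS within 5 kb the gap in rate was narrower at 60 to 64% GC, with 22.9 and 26.1, and at 65 to 69% GC, with 66.2 and 91.0, and at 70 to 74% GC the rates were 93.8 and 176. At 50 to 54% GC both rates were 6.49 there. Windows of 1 region count several times in these rates, so they carry no interval.

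Of all regions, 19 pairs of a KDM3B and an H3K9me2 region shared bases, 0.108% of the KDM3B (0.0690 to 0.168%) and 0.163% of the H3K9me2 regions (0.104 to 0.255%). These shares were 1.83 and 1.45 times those of the genome, where 0.0590% of windows lay in an H3K9me2 region and 0.112% in a KDM3B region, and the interval for H3K9me2 holds the genome share. Regions wider than a window have more room to overlap, and these ratios do not allow for that. With regions that only touch also counted, the ratios were 1.01 and 0.911. Of the 19 overlapping pairs, 14 lay on chromosome Y or within 5 Mb of an assembly gap of at least 1 Mb, which is where the centromeres are. Of all regions, 979 of 17638 for KDM3B and 696 of 11645 for H3K9me2 lay there. Within 5 Mb of such a gap, chromosome Y aside from the rule, were 5.55% of the KDM3B regions (5.22 to 5.90%) and 5.87% of the H3K9me2 regions (5.45 to 6.31%). The share of all windows was 7.66%. The largest shared 300 bases at chr6:58776401-58776700, inside the KDM3B region with the highest score of its list (6985) and the H3K9me2 region with the highest score of its list (377). Others near centromeres or on Y include chr2:92308101-92308200 and chr2:92320101-92320200, chr7:61969501-61969600, chr21:9856901-9857000, and chrY:13477101-13477300 beside the pseudogene DUX4L18. Sequence near centromeres is repeated in the genome, and its part in these overlaps was not tested.

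The other 5 pairs lay on chromosome arms, and 4 of them shared 100 bases each. At chr17:72461801-72461900 the pair lay at -688 bases from the TSS of CD300A, an inhibitory receptor of leukocytes, with scores of 34 and 66. Another 3 lay in introns at CTIF (chr18:46373901-46374000), a translation factor, at ZCCHC14-DT (chr16:87536001-87536100), a non-coding RNA, and at OXR1 (chr8:107289701-107289800), an oxidation resistance gene.

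Genes were then sorted by which regions lay within 5 kb of any of their TSSs. Of 64449 annotated genes, 18.3% had a KDM3B region and 7.09% an H3K9me2 region. Among the 20163 protein-coding genes 35.0% had KDM3B, 10.2% had H3K9me2 and 3.0% had both, which left 6445 genes with KDM3B only, 1462 with H3K9me2 only, 604 with both and 11652 with neither. Of the protein-coding genes with H3K9me2, 29.2% also had KDM3B. Long non-coding RNA genes had KDM3B in 16.2% (15.7 to 16.8%) and H3K9me2 in 7.12% (6.76 to 7.50%), and pseudogenes had each in 4.97% (4.64 to 5.33%) and 5.01% (4.67 to 5.36%).

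H3K9me2 was found less often at protein-coding genes with KDM3B, in 8.57% (7.94 to 9.24%), than at those without, in 11.1% (10.6 to 11.7%). A gene with many TSSs has a longer window and more room for both, so genes were split into 5 equal groups by window length. In the group with the shortest windows 4.74% of genes with KDM3B (3.42 to 6.52%) and 9.20% of genes without it (8.26 to 10.2%) had H3K9me2, and in the middle group 7.09% (5.89 to 8.52%) and 11.7% (10.5 to 13.0%). In the group with the longest windows the shares were 14.7% (13.2 to 16.4%) and 15.8% (14.4 to 17.4%), with overlapping intervals. Among 5 equal groups by the ratio of observed to expected CpG around the canonical TSS, the lowest had the reverse order, with 15.9% (13.4 to 18.9%) of genes with KDM3B and 11.2% (10.2 to 12.4%) of genes without it. In the lowest of 5 groups by GC there the shares were 11.4% (9.26 to 13.9%) and 8.68% (7.76 to 9.69%). With the canonical TSS alone, which gives each gene a window of equal length, they were 3.37% and 7.22%. Over all annotated genes the order was the other way, 7.51% (7.04 to 8.0%) and 7.0% (6.78 to 7.22%), so the direction depends on which genes are counted. Long non-coding RNA genes kept the order of protein-coding genes, with 5.96% and 7.35%. Pseudogenes had the reverse, with 7.57% and 4.87%. The shares were 4.65% and 4.77% for microRNA genes, and 2.33% and 3.28% for genes of snRNA, snoRNA, rRNA or miscellaneous RNA.

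The genes of these classes differed at their start sites. Around the canonical TSS, the median ratio of observed to expected CpG was 0.765 for genes with KDM3B only, 0.655 for H3K9me2 only, 0.706 for both and 0.698 for neither. The lower quartile was 0.650 for KDM3B only, 0.306 for H3K9me2 only and 0.301 for neither. Across 5 equal groups by this ratio the share of genes with KDM3B went from 17.5% (16.4 to 18.7%) in the lowest to 43.3% (41.8 to 44.8%) in the middle and 40.3% (38.8 to 41.8%) in the highest. H3K9me2 went the other way, from 12.1% (11.1 to 13.1%) in the lowest and 13.5% (12.5 to 14.6%) in the next to 7.90% (7.10 to 8.78%) in the highest.

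Several groups of genes that most cells use had KDM3B in larger shares than the 35.0% of all protein-coding genes, and most of them had H3K9me2 in smaller shares than the 10.2%. The groups were taken by the start of the gene symbol, so they hold some genes of other function. They also differ in window length, for which the shares make no allowance. The median window was 12152 bp for RPL or RPS genes, 10001 bp for histones and 11743 bp for mitochondrial ribosome genes. It was 15288.5 bp for NDUF, 19650.5 bp for proteasome and 20989.5 bp for EIF genes, against 19311 bp for all protein-coding genes. Genes with RPL or RPS symbols, mostly proteins of the cytosolic ribosome, had a KDM3B region in 68 of 102 cases (66.7%, 57.1 to 75.1%) and H3K9me2 in 2 (0.539 to 6.87%), RPL23A and RPL36, both of which also had KDM3B. This group also takes in RPS6KA2, RPS6KA4, RPS6KA5 and RPS6KC1, which encode kinases or kinase-like proteins, and RPS19BP1, all with KDM3B. The replication-dependent histones had KDM3B in 40 of 65 (61.5%, 49.4 to 72.4%) and H3K9me2 in 1 (1.54%, 0.272 to 8.21%), H2BC1, a testis-specific histone. Histone genes of a cluster share regions, so these genes are not independent and the intervals are too narrow. The neighbours H2AC17, H2BC17 and H3C12, for example, each had 5 KDM3B regions covering 1700 bases. Mitochondrial ribosome genes had KDM3B in 48 of 78 (61.5%, 50.4 to 71.6%) and H3K9me2 in 1 (1.28%, 0.227 to 6.91%). Genes with EIF symbols, mostly translation initiation factors but also EIF2AK3, EIF4EBP1 and EIF4ENIF1, had KDM3B in 31 of 56 (55.4%, 42.4 to 67.6%) and H3K9me2 in 1 (1.79%, 0.316 to 9.45%). Genes with proteasome symbols, with PSMC3IP among them, which is no proteasome subunit, had KDM3B in 23 of 40 (57.5%, 42.2 to 71.5%) and H3K9me2 in 3 (7.5%, 2.58 to 19.9%), an interval that holds 10.2%. Genes with NDUF symbols, subunits and assembly factors of respiratory complex I, had KDM3B in 23 of 48 (47.9%, 34.5 to 61.7%) and H3K9me2 in 1 (2.08%, 0.369 to 10.9%), and both intervals hold the shares of all protein-coding genes. Of the proteasome genes with H3K9me2, PSMB8 and PSMB9 encode subunits of the immunoproteasome and PSMB11 the subunit of the thymus.

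Several developmental and tissue-restricted groups had H3K9me2 in larger shares. The median gene window was 34106.5 bp for collagens and 20002 bp for KCN genes, against 19311 bp for all protein-coding genes. It was 10664 bp for HOX, 10396 bp for FOX and 10001 bp for SOX genes. Of 5 equal groups of protein-coding genes by window length, the longest had H3K9me2 in 15.3% and the shortest in 8.38%. The part of window length in the group shares was not tested. Collagens had H3K9me2 in 17 of 44 (38.6%, 25.7 to 53.4%) and KDM3B in 14. COL4A2, a basement membrane collagen, had 7 H3K9me2 regions covering 1300 bases and no KDM3B, and COL17A1, a collagen of epithelial anchors, 3 covering 1100. Genes with KCN symbols, mostly potassium channels, had each mark in 24 of 95 (25.3%, 17.6 to 34.8%), and 16 of the 24 with H3K9me2 had no KDM3B. HOX genes had H3K9me2 in 9 of 39 (23.1%, 12.6 to 38.3%) and KDM3B in 16, with both at HOXA3, HOXB3, HOXD12 and HOXD13. HOX genes also lie in clusters and can share regions, which the interval does not allow for. Genes with FOX symbols had H3K9me2 in 12 of 55 (21.8%, 12.9 to 34.4%), among them FOXF1, FOXD3 and FOXE1 without KDM3B and FOXL1 with both, and also FOXRED2, which is no forkhead factor. SOX genes had it in 5 of 19, and SOX9, a factor of intestinal stem cells, had 2 H3K9me2 regions and 1 of KDM3B.

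Olfactory receptors, clustered protocadherins and keratin-associated genes had little of KDM3B, and the first also little of H3K9me2. Olfactory receptors had KDM3B in 9 of 415 (2.17%, 1.15 to 4.07%) and H3K9me2 in 8 (1.93%, 0.980 to 3.76%). Clustered protocadherins had KDM3B in 4 of 53 (7.55%, 2.97 to 17.9%) and H3K9me2 in 3 (5.66%, 1.94 to 15.4%), and keratin-associated genes had KDM3B in 1 of 94 (1.06%, 0.188 to 5.78%) and H3K9me2 in 6 (6.38%, 2.96 to 13.2%). Zinc finger genes, many of which lie in clusters on chromosome 19, had H3K9me2 in 24 of 515 (4.66%, 3.15 to 6.84%) and KDM3B in 151 (29.3%, 25.6 to 33.4%). Solute carriers had KDM3B in 132 of 374 (35.3%, 30.6 to 40.3%) and H3K9me2 in 50 (13.4%, 10.3 to 17.2%), close to all protein-coding genes. Keratins had KDM3B in 11 and H3K9me2 in 5 of 55, and cadherins 6 and 2 of 23. Members of such clusters share windows and cannot be counted as independent.

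**Figure D5:**
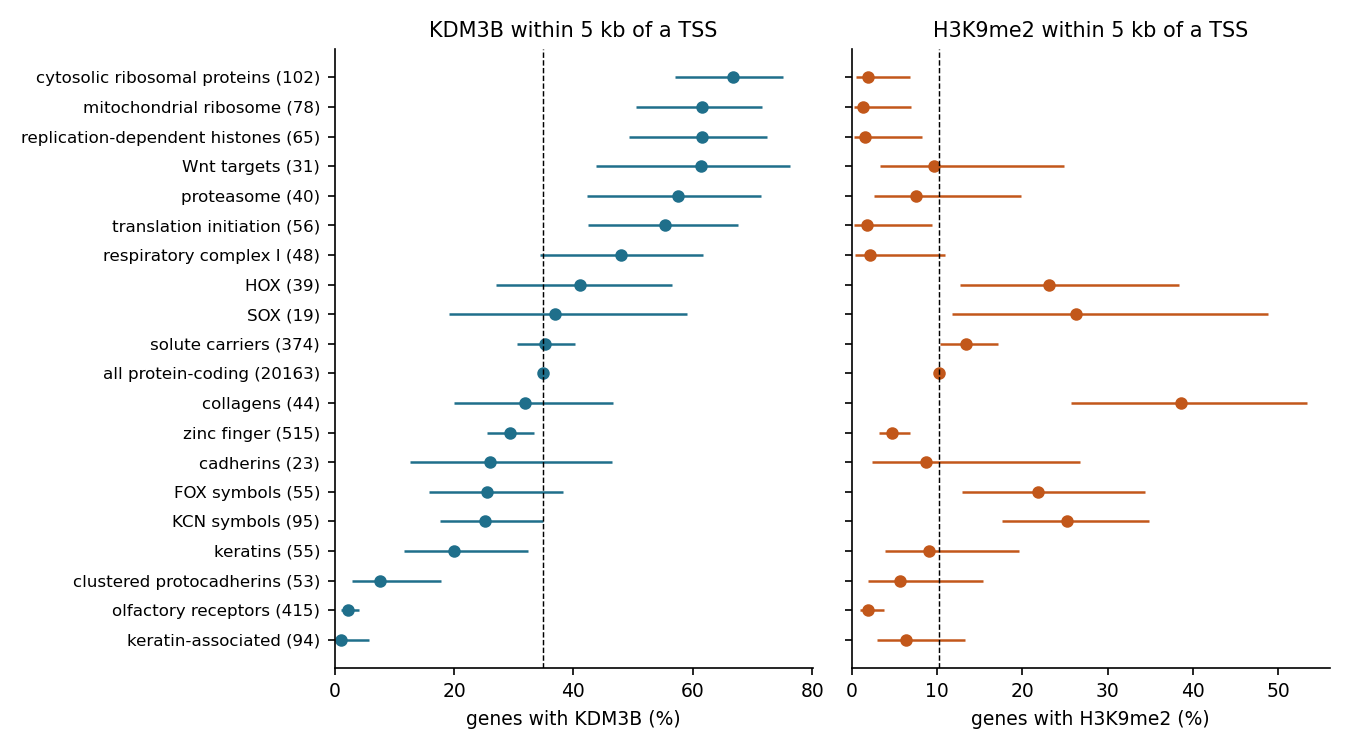
Percent of the genes of each list (number of genes in brackets) with a KDM3B region (left) or an H3K9me2 region (right) within 5 kb of a TSS, with Wilson 95% intervals. The dashed lines mark all protein-coding genes at 35.0% and 10.2%, and the ribosomal and histone lists lie to the right of the line for KDM3B and to the left for H3K9me2.

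Among the 31 Wnt target genes that the study lists, 19 had a KDM3B region (61.3%, 43.8 to 76.3%), beside 35.0% of all protein-coding genes. An H3K9me2 region lay at 3 (9.68%, 3.35 to 24.9%), near the 10.2% of all, and those 3 also had KDM3B. All 4 genes that the study follows up had KDM3B only. MYC, the growth-promoting transcription factor, had the most, with 5 regions covering 2000 bases, the widest of 1300 bp at chr8:128750201-128751500 (score 176). CCND1, which encodes the cell cycle regulator cyclin D1, had 5 regions covering 800 bases, centred from -2674 to 2926 bases relative to its canonical TSS, where a negative position is upstream. AXIN2, a feedback inhibitor of Wnt signalling, had 4 single windows, 1 of them at -384 bases, chr17:63558101-63558200 and 3 between 3516 and 5016 bases downstream. DKK1, a secreted Wnt antagonist, had 1 region of 400 bp centred at -141 bases, chr10:54073701-54074100 (score 72). The nearest H3K9me2 region was 25800 bp or more from those of MYC, 42000 from CCND1, 46700 from AXIN2 and 91100 from DKK1.

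The 3 Wnt targets with both marks each had a single 100-bp H3K9me2 window. At ID2, an inhibitor of DNA-binding helix-loop-helix factors, it lay at -5536 bases from the canonical TSS, 3700 bp from the nearest KDM3B region. At JUN, a subunit of AP-1, it lay 2069 bases downstream, 3100 bp from KDM3B. At TCF7, a TCF/LEF factor, it lay at -1022 bases, 32300 bp from a KDM3B window 31378 bases downstream. Other targets with KDM3B only were BMP4, CD44, EDN1, EFNB2, FGF18, FOSL1, JAG1, MET, MSL1, PLAUR, PPARD and TIAM1. Neither kind of region was listed at ATOH1, BIRC5, CLDN1, EFNB1, FGF20, GAST, L1CAM, LEF1, MMP7, MYCBP, NRCAM or TCF4.

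In the KDM3 family, KDM3A had a KDM3B region of 400 bp centred at -294 bases from its canonical TSS, chr2:86668001-86668400, JMJD1C had 1 window at an internal TSS, KDM3B itself had none, and none had H3K9me2. Of the 7 H3K9 methyltransferases, PRDM2 and SETDB2 had KDM3B (8.22 to 64.1%) and none had H3K9me2. Of the 12 H3K9 demethylases 7 had KDM3B (32.0 to 80.7%), and both of these intervals hold the 35.0% of all protein-coding genes. KDM4C had both, with 2 KDM3B and 3 H3K9me2 regions, and RIOX1 had 1 H3K9me2 window alone.

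The protein-coding genes with most KDM3B around their TSSs were SEPTIN9, a cytoskeletal GTPase, with 2700 bases in 10 regions, ID1, a helix-loop-helix inhibitor, with 2500 in 5, PLEC, a cytoskeletal linker, with 2500 in 6, and RAB26, a small GTPase of vesicles, with 2500 in 5. GDF15, a stress-induced cytokine, followed with 2400, TRAF7 with 2202, HLA-DMA with 2100, MYC with 2000, and ARHGDIA and BRD2 with 1900 each. Of these 10 genes only PLEC had H3K9me2, 1 window of 100 bases. The neighbours RAB26 and TRAF7, and HLA-DMA and BRD2, share some of their windows. ID1 was the most densely covered of these 10, with 249.8 covered bases per kb of its window. HEXIM1, an inhibitor of transcription elongation, lay at the second widest KDM3B region, 1900 bp at chr17:43225101-43227000, and UBE2D3 (1600 bp) and OSGIN1 (1400 bp) at others of the widest 5.

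Among the genes with most bases of H3K9me2 were PDE4DIP, a centrosomal protein, with 2500 in 9 regions, IQCN with 1500, DENND2B, SYT15 and SYT15B with 1400 each, TMEM255B with 1340, COL4A2 and HYDIN, a protein of motile cilia, with 1300 each, and ACTL7B with 1200. Of these genes PDE4DIP, IQCN and DENND2B also had KDM3B, with 100, 110 and 100 bases. PDE4DIP, HYDIN and the overlapping pair SYT15 and SYT15B have near-identical copies elsewhere in the genome, so the assignment of their reads is uncertain.

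At the genes with most of both, no KDM3B and H3K9me2 regions shared bases. The 10 leaders by the smaller of both covers were FGGY, TPRG1, HOXB3, MYORG, PLA2G6, SLC1A2, ZFAT, CACNA1S, DCDC2 and KCNC1. FGGY, a carbohydrate kinase, had 1000 bases of KDM3B and 700 of H3K9me2, and its KDM3B promoter regions, at -516 and -16 bases from the canonical TSS, were at least 33700 bp from any H3K9me2 region. Its other KDM3B regions, near TSSs further into the gene, lay 4600 and 7100 bp from H3K9me2. The closest pair was at PLA2G6, a phospholipase gene, where a KDM3B region at chr22:38505801-38506100 and an H3K9me2 region at chr22:38505301-38505500 lay 300 bp apart. At CACNA1S, a muscle calcium channel, 400 bp of KDM3B and 300 bp of H3K9me2 upstream of the canonical TSS lay 1000 bp apart, and at DCDC2 the marks lay 1900 bp apart. At HOXB3, with 1000 and 500 bases, the closest pair was 3000 bp apart. At KCNC1, a neuronal potassium channel, with 400 bases of each, the KDM3B region lay at -3728 and the nearest of 3 H3K9me2 regions at 37522 bases from the canonical TSS, 41000 bp away.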

How the data were processed

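The authors sequenced ChIP DNA, kept reads aligned to hg19 at a unique position with Bowtie, counted them in 100-bp windows, compared ChIP with input per window and deposited the called regions as lists with a score per region, whose meaning and depth are not stated. Input libraries were not analysed here, and the lists after depletion were only counted. From the deposited lists, region centres were placed on GENCODE release 44 (hg19 coordinates) in priority order promoter, downstream, 5′ UTR, 3′ UTR, coding exon, non-coding exon, intron and distal intergenic, and base composition was read from the hg19 sequence. The background was every fully assembled 100-bp window. Python 3.11.15, numpy 2.4.6, pandas 2.3.3, pysam 0.24.0 and samtools 1.23.1 were used, and the scripts were tested on simulated data. Genes carried a region when it overlapped the 5 kb on either side of any TSS. With 1 library per antibody no test was made. The members and gene lists were chosen with earlier results of these data known. Genes were named if they were among the 4 genes the study follows, Wnt targets or KDM3 members, if nearest to the 5 highest-scoring or widest regions of a list or to an overlapping pair, or if among the 10 with most KDM3B, most H3K9me2 or the largest smaller cover. Other genes named were chosen after their values were seen. Alternatives changed the promoter definition, distance, gene set, transcript set, score cutoff, number of regions, merging and background. Repeat annotation was not used here. A few items that the rules select are not reported here.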

Additional observations from a re-analysis of the deposited data

How the results depend on the processing

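No paired analysis was possible because there was 1 library per antibody and no test. Depth is unknown, so regions below the authors' threshold cannot be judged. Of 17 alternatives that compare the lists, 16 kept the same list higher, and in the other, the mean GC of the top 50% by score, H3K9me2 was higher (53.9% for KDM3B and 55.5% for H3K9me2). The cause was not tested.

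Values are given for KDM3B and then H3K9me2. The promoter share moved to 46.5% and 27.9% with promoters on both sides of the TSS, 31.9% and 14.5% with single windows, 29.1% and 8.48% with protein-coding genes and 40.1% and 16.8% over covered bases. The share within 5 kb of a TSS moved to 41.1% and 22.8% at 2 kb, 56.8% and 41.5% in the top 50% by score, 43.2% and 21.9% with protein-coding genes and 30.97% and 11.0% with canonical transcripts. Mean GC was 52.8% and 51.6% in single windows and 50.2% and 49.7% with regions widened to 1 kb. Mean width was 211 and 177 bp after merging within 1 kb and 258 and 189 bp in the top 50% by score. Chromosome 19 stood at 0.980 and 0.355 relative to annotated TSSs. The share near the other list was 0.533% and 0.833% within 1 kb, 34.8% and 50.7% within 50 kb, and 3.49% and 3.83% with equal numbers of regions. Overlapping pairs numbered 5 without chromosome Y and the centromere sides, an alternative chosen after seeing the data. Genes with both numbered 335 at 2 kb, 187 with canonical transcripts and 343 in the top 50% by score, against 886. Among all genes, H3K9me2 stood at 4.91% of genes with KDM3B and 4.24% of others in the top 50% by score, and at 3.85% and 4.37% within 2 kb.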
